A study of Mus musculus with 2756 samples.

Results

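N1d.late is the submitters' name for a cluster of young neurons of the mouse neocortex that were labelled late in neurogenesis. Its members were the cells whose cluster label reads N1d.late, 12.7% of the 2756 cells in the deposited table, whose other clusters held the remaining 2407. Most were collected 1 day after labelling, and 92.6% came from the 24 h samples. The others were 19 cells of the 96 h samples and 7 cells of the 1 h samples.

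The study injected FlashTag, a dye taken up by the cells that divide along the ventricle, at embryonic day 12, 13, 14 or 15 (E12 to E15). The brightest labelled cells of the putative somatosensory cortex were sorted after 1, 24 or 96 h and sequenced singly with SMART-Seq chemistry on C1 chips, per the labels' protocols. Each of the 12 combinations of day and time was 1 sample, because the labels name neither animals nor litters, no genotype or strain, and no treatment other than the dye. The clusters set against N1d.late were BP (basal progenitors, all sub-clusters together) and N1d.early (the other 1-day neurons), both at 24 h, and the 4-day neurons N4d.early2 and N4d.late2 at 96 h.

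Excitatory neurons of the neocortex are born from apical progenitors, directly or through basal progenitors, also called intermediate progenitors, which divide once more away from the ventricle. In the first days after birth such a neuron leaves the cell cycle, migrates radially towards the cortical plate and sends out an axon. Deep-layer neurons are generated first and upper-layer neurons later, and the POU factors Pou3f2 and Pou3f3 (Brn2 and Brn1) are known from the late-born, upper-layer lineage.

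N1d.late cells were well covered. They held a median of 396349 counts and 4628 detected genes, against 328910 counts and 4258 genes over all cells of the series. For tests, the counts of a cluster were summed within each sample, and sums of at least 10 cells were kept. N1d.late gave 3 such sums, of 19.8 M counts from 33 cells in E13, and of 64.2 M and 53.9 M counts in E14 and E15, each from over 100 cells. The E12 sum held 7 cells and is given as a level only. Levels are CPM, counts per M counts of the sum, so they compare a gene between clusters and not genes with each other. The N4d.late2 sums stood apart in quality, with median mitochondrial shares of 7.0 to 9.3% per cell against 3.8 to 4.5% in the N1d.late sums at 24 h, and the 18-cell N1d.early sum of E14 was shallow, with a median of 99361 counts per cell.

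N1d.late cells were rare among the cells labelled at E12 and the majority of those labelled at E14 and E15. At 24 h they took 2.61% of the cells labelled at E12 (7 cells, 95% Clopper-Pearson interval 1.06 to 5.31), 14.8% at E13 (33 cells, 10.4 to 20.1), 70.3% at E14 (63.8 to 76.3) and 60.6% at E15 (53.7 to 67.2). The intervals of E12 and E13 did not overlap with each other or with those of E14 and E15, while the intervals of E14 and E15 overlapped. Among the 1-day neurons alone the share was 3.98, 21.4, 89.5 and 98.5% from E12 to E15. At 1 h the share was 0.529% in E12 and 1.99% in E15 with no cell in E13 and E14, where the floor of 3 cells of the total allows up to 1.45% and 2.24%. At 96 h it was 1.64, 1.12, 0.394 and 4.64% from E12 to E15. The intervals cover counting error only. At 24 h E12 and E13 carried one run code in the cell titles and E14 and E15 another, so the step between E13 and E14 cannot be told apart from the run.

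**Figure D1:**
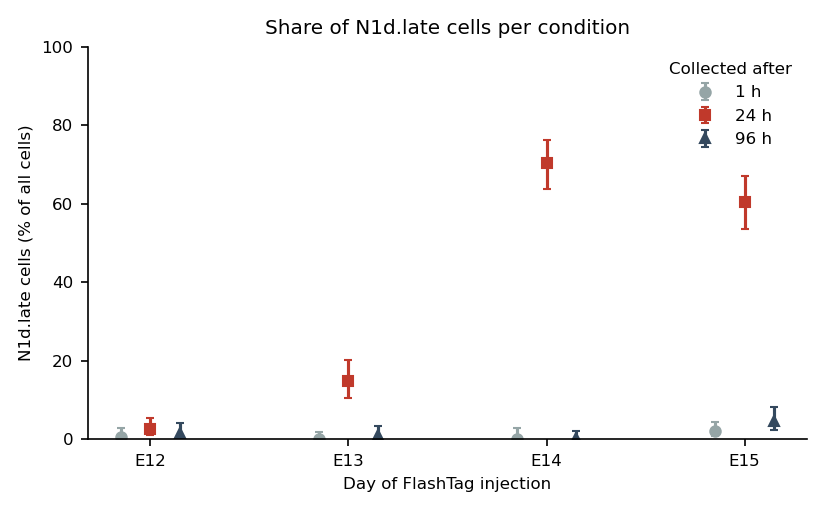
Share of N1d.late cells (% of all cells of the sample, vertical axis) by day of FlashTag injection (horizontal axis) and collection time (colour and marker), with 95% Clopper-Pearson intervals. At 24 h the share was 2.61% in E12, 14.8% in E13, 70.3% in E14 and 60.6% in E15, and it was at most 4.64% at 1 h and 96 h.

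Scores that the submitters gave each cell in the labels were set beside the cluster as they stand. The median differentiation score of N1d.late cells at 24 h was 0.364 in E12, 0.361 in E13, 0.403 in E14 and 0.402 in E15, and that of N1d.early cells was 0.345, 0.343, 0.302 and 0.269, the last over 2 cells. The median birthdate score of N1d.late cells was 0.350, 0.346, 0.430 and 0.542 from E12 to E15, and that of N1d.early cells 0.199, 0.232, 0.175 and 0.106. N1d.late cells thus had the higher medians of both scores on each of the 4 days. Scores and clusters were both given by the submitters, so this order is no independent evidence that the clusters differ. The 33 E13 cells of N1d.late had a median birthdate score below that of the E14 and E15 cells of the same cluster.

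The label was checked on 4 genes, Pou3f2 and Pou3f3, Unc5d, a netrin receptor of migrating young neurons, and Nrp1, the neuropilin co-receptor for class 3 semaphorins. All were detected widely in N1d.late cells at 24 h. A Pou3f3 read was found in 100% of cells, an Nrp1 read in 99.1%, a Pou3f2 read in 97.2% and an Unc5d read in 95.7%. In BP cells of 24 h the shares were 97.6% for Pou3f3, 79.2% for Nrp1, 74.4% for Pou3f2 and 53% for Unc5d, at median depths of 416150 counts per cell in N1d.late and 416230 in BP. Pou3f3 (chromosome 1, 42695768 to 42703176, GRCm38, GENCODE vM21) was therefore present in nearly all cells of both clusters.

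Nrp1 (chromosome 8, 128358604 to 128503363) set N1d.late apart from BP. Nrp1 stood at 379, 900, 1264 and 897 CPM in the E12, E13, E14 and E15 sums of N1d.late, against 170, 204.7, 204.8 and 103.7 CPM in BP, with no overlap. The BP sum of E14 held 8 cells, so its levels, here and below, were not in the tests. Its log2 change was 2.53 ± 0.49 (SE, adjusted p 0.0107 in edgeR's quasi-likelihood test with Benjamini-Hochberg adjustment, 3 sums each), and it passed in 4 of 6 fits that each left out 1 sum. Unc5d (chromosome 8, 28646717 to 29219636) stood at 337.2, 371, 469 and 683 CPM in N1d.late, against 34.5, 104.9, 8.97 and 54.8 CPM in BP. The levels did not overlap either, but the log2 change of 2.36 ± 0.67 did not pass (adjusted p 0.102).

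Pou3f2 and Pou3f3 did not separate N1d.late from BP. Pou3f2 (chromosome 4, 22482780 to 22488366) stood at 59.5, 227.9, 490 and 596 CPM in N1d.late from E12 to E15, against 57.99, 228.4, 430 and 488 CPM in BP. Its log2 change was 0.33 ± 0.57 (edgeR adjusted p 0.953), and that of Pou3f3 was 0.54 ± 0.35 (adjusted p 0.686). Pou3f2 was higher on each later day in both clusters, with the small sums of N1d.late in E12 and of BP in E14 included. Against the 4-day clusters no label marker passed in either contrast. Pou3f2 had a log2 change of -0.85 ± 0.55 against N4d.early2 and of -1.38 ± 0.56 against N4d.late2 (adjusted p 0.675 and 0.251).

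Against N1d.early, the cluster most like it, none of the label markers passed, and no gene did. On E13, the day on which both clusters had over 30 cells in the same run, N1d.late and N1d.early stood at 371 and 227.99 CPM for Unc5d, 900 and 573 CPM for Nrp1, 227.9 and 125.4 CPM for Pou3f2, and 489 and 404 CPM for Pou3f3. Each marker was higher in N1d.late on that day. On E14 Pou3f2 stood at 490 CPM in N1d.late and at 927 CPM in the shallow N1d.early sum, and Pou3f3 at 837 and 1054 CPM. The marker order therefore differed between the days. In this contrast 0% of the 10990 genes tested passed in edgeR, 431 genes had an unadjusted p below 0.05, 210 of them higher in N1d.late, and DESeq2 called 16 genes. Among members of the gene lists used here, the smallest p belonged to Hmgb2, a chromatin protein of dividing cells, at a log2 change of -1.74 ± 0.49 (p 0.00217, adjusted p 0.987).

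**Figure D2:**
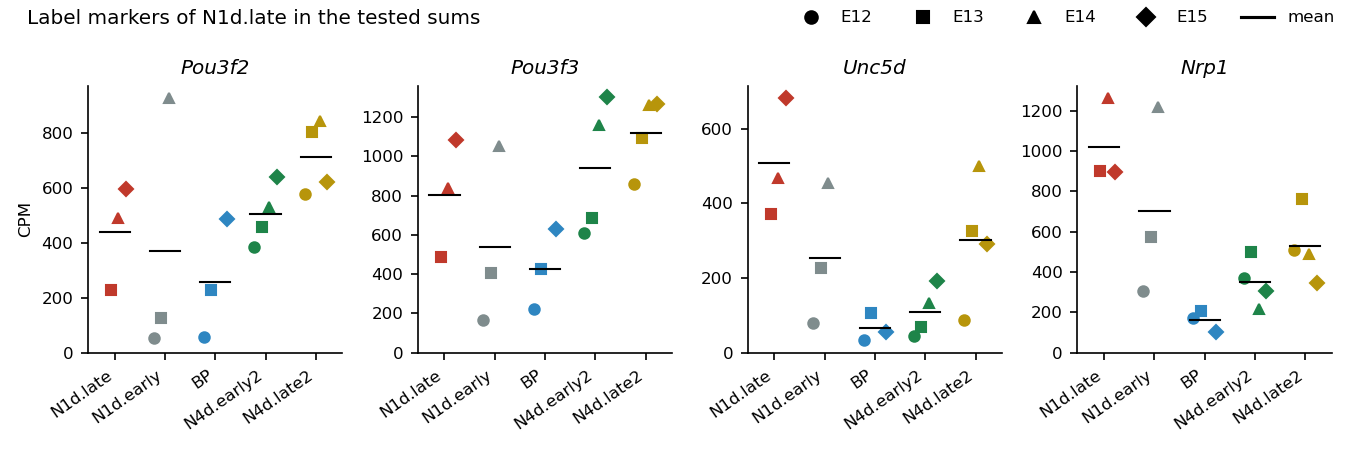
Levels (CPM, vertical axis) of the 4 label markers in the sums of at least 10 cells of each cluster, with 1 marker per injection day and a line at the mean. Nrp1 in N1d.late (897 to 1264 CPM) lay above every BP sum, whereas Pou3f2 and Pou3f3 overlapped between N1d.late and BP.

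The comparison with BP asked how these young neurons differed from the progenitors collected with them. N1d.late cells were higher for genes of axon guidance, adhesion and the neuronal cytoskeleton, and lower for genes of the cell cycle and of basal progenitors. Of 10990 genes, 79 were higher (0.719%) and 46 lower (0.419%), so 1.14% passed in either direction. The submitters named the clusters from expression. The p-values of this and the next comparisons therefore measure how steady a difference was over injection days and are no independent evidence that the clusters differ. Nothing in the labels says that the samples came from separate animals, so the p-values reflect no more than how much these samples vary, which may be technical.

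Among the genes with the largest increases were several of growing axons. Nav3, a neuron navigator protein that binds microtubules, stood at 63.3, 76.7 and 69.4 CPM in the E13, E14 and E15 sums of N1d.late, against 4.50, 6.79 and 10.1 CPM in the E12, E13 and E15 sums of BP (log2 change 3.38 ± 0.66, edgeR adjusted p 0.0113). Chl1, an adhesion molecule of the L1 family (chromosome 6, 103510586 to 103750211), stood at 607, 483 and 626 CPM in N1d.late against 96.4, 90.9 and 13.97 CPM in BP (2.93 ± 0.61, adjusted p 0.0170). Plxna4, a plexin receptor for semaphorins, stood at 541, 315.2 and 291.97 CPM against 83.9, 37.6 and 49.8 CPM (2.66 ± 0.47, adjusted p 0.00656). For each of these genes the lowest N1d.late sum was above the highest BP sum, which the rule for naming genes by size required. The other genes chosen by size were Khdrbs2, an RNA-binding splicing regulator (3.29 ± 0.59), the ceramide synthase Cers6 (3.17 ± 0.57), Fam57b (3.15 ± 0.73), the SNARE protein Snap25 (2.89 ± 0.66) and Hs6st2, which adds sulfate to heparan chains (2.76 ± 0.54).

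The genes that fell most were those of dividing cells and of the basal progenitor state. Eomes (Tbr2, chromosome 9, 118478212 to 118486132), the transcription factor that marks basal progenitors, stood at 27.6, 92.6 and 167.6 CPM in N1d.late, against 545, 951 and 1472 CPM in BP (-3.93 ± 0.84, edgeR adjusted p 0.0217, 0.0669 without injection day in the fit). Neurog2, a proneural bHLH factor, stood at 27.3, 40.7 and 40.02 CPM against 183.1, 433 and 496 CPM (-3.46 ± 0.76, adjusted p 0.0247). Top2a, the topoisomerase of replicating chromosomes, stood at 54.8, 31.9 and 83.7 CPM against 1226, 997 and 518 CPM (-3.90 ± 0.72, adjusted p 0.00851). In these sums none of the 3 genes overlapped between the clusters, as the rule for naming genes by size required. Nuf2 of the kinetochore (-6.73 ± 1.49), the histone gene Hist1h2ap (-4.66 ± 0.99), Mki67 (-3.65 ± 0.73), Hmgb2 (-3.17 ± 0.51) and the cyclin-dependent kinase partner Cks2 (-3.16 ± 0.75) also fell. Hist1h2ap belongs to a family of near-identical histone genes, so its reads could not be assigned with certainty.

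The reads of cell-cycle and basal progenitor genes in N1d.late were concentrated in a minority of its cells. At 24 h the 33 cells with the highest Eomes level, the top 10% of the cells, held 68.3% of the summed Eomes CPM. The same share was 76.5% for Neurog2, 84.8% for Top2a and 91.5% for Mki67. For the label markers it was lower, at 25.2% for Pou3f3, 27.7% for Nrp1, 30.7% for Pou3f2 and 33.7% for Unc5d. It was 32.7% for Rnd2, 38.2% for Neurod1 and 43.6% for Sema6d. Eomes exceeded 100 CPM in 77 cells (23.8%), Top2a in 44 cells (13.6%) and Mki67 in 33 cells (10.2%). No doublet caller was run, and the part that wells with more than 1 cell have in these values was not tested. The label markers had higher levels than Eomes, Neurog2, Top2a and Mki67. The part of this difference in level was not tested either.

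By gene list, 8 of 15 young neuron genes rose and none fell, with a median log2 change of 1.53 against 0.02 over all genes tested. Among them were Myt1l (2.44 ± 0.41), Neurod2 (1.53 ± 0.30) and Dcx (1.77 ± 0.33), the microtubule protein doublecortin needed for migration. Of 29 tubulin and microtubule genes 10 rose, among them Dpysl3 (1.69 ± 0.22), a collapsin response mediator, and Tuba1a (1.05 ± 0.19), and 1 fell, the tubulin gene Tuba1b (-1.48 ± 0.33, median of the list 1.06). Of 37 axon guidance genes 5 rose (median 0.84), namely Plxna4, Nrp1, Sema6d, Epha5 and Robo2, the Slit receptor. Robo2 stood at 476, 573 and 527 CPM in N1d.late, against 67.4, 91.7 and 148.8 CPM in BP (2.36 ± 0.40, edgeR adjusted p 0.00504). Of 21 axonal adhesion genes 5 rose (median 1.47), and of 14 maturing neuron genes 4 rose (median 1.82), among them Mapt (tau, 2.16 ± 0.48). No member of the last 3 lists fell. The lists share members, such as Dcx and Mapt, so a gene can be counted in more than 1 of them.

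Lists of receptor, layer, synapse and migration genes also held called genes, except the deep-layer factors. Over all genes tested, 0.719% were higher in N1d.late than in BP. Of 25 ion channel and receptor genes 2 rose (median 1.38), the sodium channel gene Scn2a1 and Gria2, which encodes the AMPA receptor subunit GluA2. Gria2 (chromosome 3, 80681450 to 80802835) stood at 877, 1134 and 1323 CPM in N1d.late against 182.6, 204.2 and 183.3 CPM in BP (2.35 ± 0.22, edgeR adjusted p 8.99e-06). Of 21 upper-layer and late-neuron factors 2 rose, among them Nfib (1.18 ± 0.20), and no deep-layer factor of 13 passed (medians 0.66 and 1.56). Of 26 synapse genes 1 rose (median 1.55), and of 29 radial migration genes 2 rose, Dcx and Cdk5r1 (median 0.47).

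Lists of progenitors and division moved the other way. Of 15 basal progenitor genes 4 fell (Eomes, Neurog2, Gadd45g and Hes6, median of the list -1.80), and of 15 apical progenitor genes 3 fell (Mki67, Pax6 and Vim, median -2.21). Of 24 G2 and M phase genes 3 fell (median -3.65), of 20 S phase genes 3 fell, among them Pcna (-2.48 ± 0.55, median -2.35), and of 20 cell-cycle exit and G1 genes 2 fell, among them the cyclin gene Ccnd2 (-2.16 ± 0.33, median -2.36). No member of these lists rose, and every tested member of the G2 and M, S phase, apical and basal progenitor lists had a negative log2 change. These lists share members, such as Mki67 and Gadd45g, so their calls are not separate. Of 17 glycolysis genes 2 fell, Ldha and Gpi1 (median -0.51). No gene passed among 17 Notch pathway genes (median -1.34) or 8 immediate early genes (median 0.98).

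Leaving out any 1 of the 6 sums compared reduced the calls against BP to between 43 and 71 genes. Of the genes named above by size, only Hmgb2 passed in all 6 of these fits, whereas Snap25, Fam57b and Nuf2, and Pcna among the list members, passed in none of them, and DESeq2 called 575 genes. Without injection day in the fit, Khdrbs2 (edgeR adjusted p 0.0553), Fam57b (0.0857), Gpi1 (0.0893), Pax6 (0.0716), Vim (0.159) and Neurod6 (0.196) did not pass either. The log2 changes of Eomes (-3.375), Khdrbs2 (2.677) and Fam57b (2.599) were smaller in size in that fit.

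**Figure D3:**
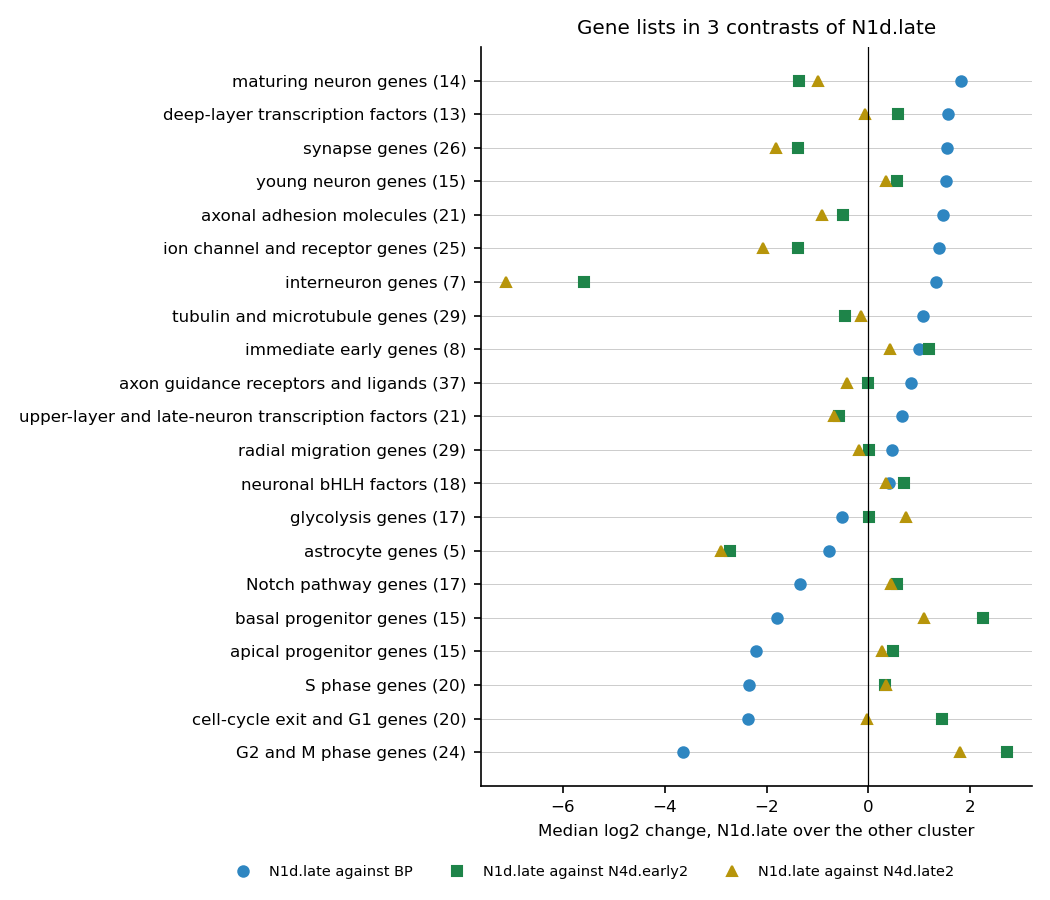
Median log2 change of the tested members of each gene list (number of members in brackets) for N1d.late over BP, N4d.early2 and N4d.late2, with a vertical line at 0. G2 and M phase genes had a median of -3.65 against BP and of 2.72 and 1.81 against N4d.early2 and N4d.late2, and synapse genes a median of 1.55 against BP and of -1.38 and -1.82 against the 4-day clusters.

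The comparison with N4d.early2, the 4-day neurons seen on every injection day, asked how 1-day neurons differed from older ones. Of the lists, N1d.late at 24 h was higher for 6 of 15 basal progenitor genes and 7 of 24 G2 and M phase genes, and lower for 5 of 14 maturing neuron genes and 6 of 29 tubulin and microtubule genes. Of 10990 genes 1.14% were higher and 0.783% (86 genes) lower, and 1.92% passed in either direction. The balance of the calls depended on the fit, since 59.2% of the calls were higher in N1d.late here, against 47.9% in DESeq2, 45.2% in limma and 40.5% with only these groups fitted. Collection time and run code cannot be told apart here, since every 96 h cell belongs to other run codes than the 24 h cells. The 11 N1d.late cells of E15 at 96 h share a run code with the 4-day cells of E15. As the clusters were named from expression, agreement of these cells with the calls is no independent evidence. Their levels give a comparison within 1 sample. Of the 63 called genes that were list members or chosen by size, 41 differed there from N4d.early2 in the direction of the call by at least 1 on the log2 scale, with 1 CPM added. The other 9 with that direction differed by less, and 13 showed no difference or the opposite one.

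Rnd2 (chromosome 11, 101464999 to 101471853), a small GTPase needed for radial migration, stood at 651, 779 and 571 CPM in N1d.late, against 17.4, 23.5, 6.10 and 9.65 CPM in N4d.early2 from E12 to E15 (log2 change 5.98 ± 0.87, edgeR adjusted p 0.00079). In the E15 cells of 96 h, within 1 run, Rnd2 stood at 1027 CPM in N1d.late and at 9.65 CPM in N4d.early2. Celsr1, a planar polarity cadherin, stood at 69.2, 79.4 and 132.7 CPM in N1d.late against 2.92, 5.37, 1.71 and 0.946 CPM in N4d.early2 (4.95 ± 0.64, adjusted p 0.000311), and at 34.3 CPM in N1d.late of E15 at 96 h. Sstr2, a somatostatin receptor, stood at 195.3, 149.4 and 202.5 CPM against 0.135, 3.81, 4.24 and 8.42 CPM (5.50 ± 0.85, adjusted p 0.00119), and at 253.5 CPM in N1d.late of E15 at 96 h. The groups did not overlap for these 3 genes, which the rule for naming them required. For all 3 the call held in each of the 7 fits that left out 1 sum. Their levels in the N1d.late cells of E15 at 96 h lay above every N4d.early2 sum. Celsr1 was lower in the 3 N1d.late cells of E13 at 96 h, at 2.15 CPM.

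The calmodulin regulator Pcp4 (4.93 ± 0.90), the Notch-modifying glycosyltransferase Mfng (5.25 ± 1.33) and Sh3bgrl2 (5.56 ± 1.36) were also higher than in N4d.early2, and stood at 156.5, 139.1 and 86.02 CPM in N1d.late of E15 at 96 h, against 5.44, 0.615 and 0.0946 CPM in N4d.early2 of the same sample. For Ttc39b (7.78 ± 1.23) and Dusp14, a phosphatase (5.13 ± 0.83), the N1d.late cells of E15 at 96 h did not follow those of 24 h. Ttc39b stood at 120, 39.03 and 14.6 CPM in N1d.late at 24 h and at 0 CPM in N1d.late of each day at 96 h, against 0 to 2.37 CPM in N4d.early2. Dusp14 stood at 262.6, 225.3 and 169.2 CPM in N1d.late at 24 h and at 120, 63.5 and 0 CPM in N1d.late of E12, E13 and E15 at 96 h, against 1.89, 13.9 and 4.45 CPM in N4d.early2 of the same samples. The Ttc39b difference was thus not found within any sample of 96 h, and that of Dusp14 was found in the few cells of E12 and E13 but not in E15.

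Genes of the mature neuron were low in N1d.late. Mef2c (chromosome 13, 83504034 to 83667080), an activity-regulated transcription factor, stood at 42.8, 9.46 and 9.67 CPM in N1d.late, against 1263, 1158, 1314 and 1104 CPM in N4d.early2 (-5.84 ± 1.33, edgeR adjusted p 0.0236), and at 19.7 CPM in N1d.late of E15 at 96 h. Camk2b, a calcium-dependent synaptic kinase, stood at 13.3, 0.374 and 0.0186 CPM against 286.7, 285.7, 341.2 and 335.7 CPM (-6.40 ± 1.60, adjusted p 0.0410), and at 2.59 CPM in N1d.late of E15 at 96 h. Clstn2, a calsyntenin of synapses, stood at 1.16, 4.05 and 0.427 CPM against 201.9, 294.8, 120.9 and 272.3 CPM (-7.41 ± 1.50, adjusted p 0.00982). In N1d.late of E15 at 96 h Clstn2 stood at 2.26 CPM, so all 3 genes were low there beside 4-day cells of the same sample. The 4 N1d.late cells of E12 at 96 h differed, with 530 CPM of Mef2c and 145.5 CPM of Clstn2.

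Tnr, which encodes the matrix protein tenascin-R, had 1 count in the 3 N1d.late sums at 24 h together, against 45.9 to 81.1 CPM in the N4d.early2 sums. The adaptor Sla (-5.50 ± 1.29) and Ndrg1 (-7.50 ± 1.92) fell as well, and Sla, which passed in none of the 7 fits that left out 1 sum, stood at 2.91 CPM in N1d.late of E15 at 96 h against 203.99 CPM in N4d.early2. Dnm3, a dynamin of membrane traffic, stood at 0.0505, 4.99 and 6.89 CPM in N1d.late against 158.5, 153.7, 199.3 and 100 CPM in N4d.early2 (-6.45 ± 1.58, edgeR adjusted p 0.0363). Within the E15 sample of 96 h, Dnm3 stood at 67.6 CPM in N1d.late and 100 CPM in N4d.early2, so the difference was far smaller within that sample.

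By list, 7 of 24 G2 and M phase genes rose against N4d.early2 (median 2.72 against 0.03 over all genes), among them Cdk1 (5.66 ± 1.32), and 6 of 15 basal progenitor genes rose (median 2.24), among them Insm1 (2.19 ± 0.37) and Eomes (3.26 ± 0.77). Of the 7 G2 and M phase genes called, none was higher by 1 or more on the log2 scale within the E15 sample of 96 h, where Cdk1 stood at 0 CPM in N1d.late and 0.189 CPM in N4d.early2, Top2a at 0 and 11.3 CPM, and Hmgb2 at 55.6 and 30.6 CPM. Of the 29 radial migration genes 2 rose and 1 fell, with a median of 0.0047. Of 15 young neuron genes 4 rose, among them Neurod1, and 1 fell, Stmn2 (median 0.57). Of 14 maturing neuron genes 5 fell and none rose (median -1.36), and of 29 tubulin and microtubule genes 6 fell and 1 rose (median -0.46). Mapt, the microtubule protein tau, stood at 180.9, 140.8 and 126.4 CPM in N1d.late, against 1488, 1400, 1315 and 1145 CPM in N4d.early2 (-3.10 ± 0.47, edgeR adjusted p 0.00106). In the E15 cells of 96 h, Mapt stood at 122.9 CPM in N1d.late and 1145 CPM in N4d.early2.

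Adhesion and layer genes moved in both directions. Of 21 axonal adhesion genes 4 fell and 1 rose (median -0.50). Ncam1, the neural cell adhesion molecule, stood at 365, 327.7 and 372 CPM in N1d.late, against 1704, 1666, 1518 and 1477 CPM in N4d.early2 (-2.18 ± 0.24, edgeR adjusted p 9.35e-05). Of 21 upper-layer and late-neuron factors 3 rose, Nfib, Nfia and Lhx2, and 2 fell, among them Mef2c (median -0.57). Both deep-layer factors that passed, of 13 tested, were higher in N1d.late, Bcl11b (Ctip2, 3.33 ± 0.62) and Fezf2 (3.72 ± 0.94). Within the E15 sample of 96 h, Bcl11b stood at 209.2 CPM in N1d.late and 21.3 CPM in N4d.early2, but Fezf2 at 0 CPM in N1d.late and 3.22 CPM in N4d.early2, opposite to its call. Of 37 axon guidance genes 3 rose, Sema6d, Epha5 and Efnb1 (median -0.0048), of 26 synapse genes 1 fell (median -1.38), and of 25 ion channel and receptor genes none passed (median -1.38).

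Against N4d.late2, a 4-day cluster also found on every day, 0.928% of 10990 genes were higher in N1d.late and 0.701% (77 genes) lower, and 1.63% passed in either direction. With the size factors of DESeq2 in place of TMM the split was 68 higher and 81 lower, and with only these groups fitted 0 were higher and 16 lower. DESeq2 had 46.1% of its calls higher in N1d.late, against 57% here. With cells of at least 100000 counts and at most 8% mitochondrial counts, 43 were higher and 36 lower. Of 39 called genes followed across the fits, 19 were still called in those cells and 8 with only these groups fitted. None of the genes named below as higher passed with only these groups fitted. Within the E15 sample of 96 h, 25 of the 40 called genes that were list members or chosen by size differed in the direction of the call by at least 1 on the log2 scale, 6 by less, and 9 showed the opposite direction. This comparison shares the N1d.late sums with the one before, so the 2 are not independent.

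Rnd2 was again higher, with 73.6, 120, 0.873 and 90.5 CPM in N4d.late2 from E12 to E15 beside the 571 to 779 CPM of N1d.late (log2 change 3.70 ± 0.81, edgeR adjusted p 0.0205). Neurod1 (chromosome 2, 79452521 to 79456751), a bHLH factor of neuronal differentiation, stood at 414, 301.7 and 409 CPM in N1d.late against 111.4, 51.4, 16.6 and 151.4 CPM in N4d.late2 (2.54 ± 0.51, adjusted p 0.0124). Within the E15 sample of 96 h, Neurod1 stood at 595 CPM in N1d.late and 151.4 CPM in N4d.late2. Slc30a10, a manganese transporter (4.61 ± 0.85), the receptor kinase Kit (5.70 ± 1.35), Ttc39b (7.72 ± 1.24), Dusp14 (3.42 ± 0.84), Cdca4 (3.11 ± 0.75) and the chaperone Dnajb1 (2.66 ± 0.65) were higher too. Dnajb1 stood at 30.7 CPM in N1d.late and 36.1 CPM in N4d.late2 of E15 at 96 h, so its difference was not found within that run. The differences of Dusp14 (0 and 2.31 CPM) and Ttc39b (0 and 0.23 CPM) were not found there either. Slc30a10 (53.04 and 28.1 CPM) differed by less than 1 on the log2 scale, and Kit (19.4 and 0.519 CPM) and Cdca4 (52.7 and 19.4 CPM) by more.

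Among the genes that were lower than in N4d.late2, Ccbe1, a secreted calcium-binding protein, had no count in the 3 N1d.late sums. Its level in N4d.late2 was 42.8, 3.47, 107.4 and 61.7 CPM from E12 to E15. A floor of 3 counts over the group would put N1d.late at least 2165-fold lower, a limit that covers counting error only. Grin2b, an NMDA receptor subunit, stood at 0, 8.02 and 6.01 CPM in N1d.late against 477, 198.5, 408 and 292.4 CPM (-6.55 ± 1.64, edgeR adjusted p 0.0449), and at 47.2 CPM in N1d.late of E15 at 96 h. Clstn2 (-7.61 ± 1.52), Dnm3 (-6.58 ± 1.56), Shroom2 (-6.84 ± 1.50), the kinesin linker Sybu (-7.04 ± 1.74), the long RNA Dlx6os1 (-7.91 ± 1.71) and RP23-14P23.9 (-7.58 ± 1.32) completed the genes chosen by size. Within the E15 sample of 96 h, Dlx6os1 stood at 65.97 CPM in N1d.late and 62.9 CPM in N4d.late2, so its difference was not found there. Dlx6os1 lies antisense to Dlx6, a gene of interneurons, and whether the counting used strand is not given in the sources used here.

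Interneuron genes were lower in N1d.late at 24 h than in the 4-day clusters at 96 h. Cluster, collection time and run code cannot be told apart in this difference. The summed level of the 10 interneuron genes was 0.759, 27.7, 8.99 and 7.13 CPM from E12 to E15 in N1d.late at 24 h, where 9, 8, 1 and 2 of the 10 were at 0. It was 110 to 247.1 CPM in N4d.early2 and 103.1 to 484 CPM in N4d.late2. Among N1d.late cells at 24 h Gad2, an enzyme of GABA synthesis, stood at 0.467 to 2.56 CPM, and Erbb4 was at 0 in E12 and E13. The part of interneuron RNA in the differences from the 4-day clusters was not tested. The 7 tested members had a median log2 change of -7.11 against N4d.late2 with 1 call, Dlx6os1.

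In the lists, 3 of 15 young neuron genes rose against N4d.late2 (median 0.34 against 0.05 over all genes), Neurod1, Neurod6 and Rnd2, and none fell. Of 14 maturing neuron genes 2 fell (median -0.99), Mapt (-2.66 ± 0.46) and Mef2c. Of 25 ion channel and receptor genes 4 fell (median -2.06), among them Gria2, which stood at 877, 1134 and 1323 CPM in N1d.late against 3618, 3245, 4877 and 3939 CPM in N4d.late2 (-1.90 ± 0.20, edgeR adjusted p 4.75e-05). Gria2 therefore lay between BP and N4d.late2 in N1d.late. Upper-layer and late-neuron factors split again, with Lhx2, Nfia and Nfib higher and Mef2c and Zbtb20 among those that were lower (median -0.67). Within the E15 sample of 96 h, Zbtb20 stood at 2093 CPM in N1d.late and 1348 CPM in N4d.late2, opposite to its call, and Neurod6 at 683 and 784 CPM, also opposite. Lhx2, Nfia and Nfib were higher in N1d.late there too, but by less than 1 on the log2 scale. Of 24 G2 and M phase genes 1 rose (median 1.81), of 15 basal progenitor genes none passed (median 1.09), and of 17 glycolysis genes 3 rose (median 0.75), Pkm, Ldhb and Tpi1. Within the E15 sample of 96 h, Tpi1 stood at 60.15 CPM in N1d.late and 64.3 CPM in N4d.late2, opposite to its call.

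Against N4d.late2, where 1.63% of the genes passed, 0.755, 0.373 and 0.546% did without N1d.late of E13, E14 and E15. Without N4d.late2 of E12 or E14 it was 0.955 or 0.737%, whereas without N4d.late2 of E13 it was 2.77%. Against N4d.early2 (1.92%) it was 1.23, 0.974 and 0.783% without N1d.late of E13, E14 and E15, and 1.16, 1.05 and 1.16% without N4d.early2 of E13, E14 and E15. Without injection day in the fit, Ttc39b did not pass against N4d.early2 (edgeR adjusted p 0.0632) or N4d.late2 (0.0582). The same held against N4d.early2 for Sh3bgrl2 (0.0827), Dnm3 (0.0788), Ndrg1 (0.141) and Fezf2 (0.110). Against N4d.late2 it held for Kit (0.0799), Grin2b (0.0574), Sybu (0.171), Dnm3 (0.0662), Dlx6os1 (0.0689), Neurod6 (0.391) and Zbtb20 (0.328). For each of these genes the log2 change was also smaller in size without injection day. Against N4d.early2 that of Ttc39b was 5.778 beside 7.78, of Ndrg1 -5.405 beside -7.50, and of Sh3bgrl2 4.221 beside 5.56. Against N4d.late2 that of Sybu was -5.225 beside -7.04, and of Kit 4.509 beside 5.70.

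A further contrast asked which genes stood above or below the average of the progenitors and the older neurons. It set N1d.late against the mean of BP on one side and N4d.early2 and N4d.late2 on the other, each side with equal weight. A gene could pass it through a difference from 1 side alone. Bcl11b, which passed here, passed neither against BP nor against N4d.late2. The 4-day clusters N4d.early1 and N4d.late1 were not in the fit, since they reached 10 cells in 1 sample each. Of 10990 genes, 15 were higher (0.136%) and 2 lower (0.0182%), and 0.155% passed in either direction. Without injection day in the fit 9 passed, all higher, and with the size factors of DESeq2 10 did. No gene passed without N1d.late of E13, the only one of the 3 sums from the other run code, and 3 to 6 genes passed without any 1 of the other N1d.late sums or of the BP sums.

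The largest change belonged to Rnd2 (3.23 ± 0.65, edgeR adjusted p 0.0440), with 315.1, 491 and 182.8 CPM in BP of E12, E13 and E15 beside the 571 to 779 CPM of N1d.late. It was followed by Sema6d (chromosome 2, 124089969 to 124667770), a transmembrane semaphorin. Sema6d stood at 364, 264.5 and 249.1 CPM in N1d.late, against 73.9, 60.2 and 68.3 CPM in BP, 12.8, 13.9, 15.3 and 35.4 CPM in N4d.early2, and 142.6, 18.2, 56.9 and 42.98 CPM in N4d.late2 (2.85 ± 0.44, adjusted p 0.00628). Every N1d.late sum of Sema6d was above every sum of these 3 clusters, which was a condition for naming it by size. Neurod1 had a log2 change of 2.33 ± 0.41 (adjusted p 0.0252), with 198.3, 125.01 and 96.3 CPM in BP.

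Plcb1 (chromosome 2, 134786067 to 135475258), a phospholipase of G protein signalling, stood at 384, 184.8 and 305.7 CPM in N1d.late, against 47.6, 63.5 and 75.6 CPM in BP, 10.2 to 29.8 CPM in N4d.early2 and 46.5 to 143.1 CPM in N4d.late2 (2.30 ± 0.38, edgeR adjusted p 0.0123). Nuak1 (chromosome 10, 84370905 to 84440597), a kinase of axon branching, stood at 818, 754 and 556 CPM against 185.2, 268.4 and 155.4 CPM in BP, 174.3 to 320 CPM in N4d.early2 and 176.5 to 385 CPM in N4d.late2 (1.61 ± 0.22, adjusted p 0.00202). Both genes were higher in every N1d.late sum than in any BP, N4d.early2 or N4d.late2 sum, again a condition of their choice.

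The transcription factor Nfib (chromosome 4, 82290173 to 82705750) stood at 6262, 4231 and 4030 CPM in N1d.late, against 1954, 3145 and 1504 CPM in BP, 1232 to 1710 CPM in N4d.early2 and 2393 to 2893 CPM in N4d.late2 (1.21 ± 0.15, edgeR adjusted p 0.00165). Sox11 (chromosome 12, 27334264 to 27342574), a SoxC factor of newborn neurons, stood at 11773, 9200 and 8607 CPM against 3848, 4692 and 3624 CPM in BP, 3896 to 5278 CPM in N4d.early2 and 4950 to 7849 CPM in N4d.late2 (1.07 ± 0.15, adjusted p 0.00202). Nrp1 completed the genes chosen by size (1.85 ± 0.36, adjusted p 0.0383). Of these 8 genes, Nfib and Sox11 passed in 13 of 14 fits that left out 1 sum, Nuak1 in 12, Sema6d in 11, Plcb1 in 10, Neurod1 in 8, Nrp1 in 4 and Rnd2 in 3. Bcl11b (2.59 ± 0.50), Epha5 (1.19 ± 0.23) and Neurod6 (0.97 ± 0.18) were the other list members that passed. Without injection day in the fit, Rnd2 (edgeR adjusted p 0.107), Neurod1 (0.0588), Bcl11b (0.190), Epha5 (0.0797) and Neurod6 (0.530) did not pass.

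The levels of N1d.early are given beside these. Rnd2 stood at 890, 713 and 429 CPM in N1d.early of E12, E13 and E14, Sema6d at 245.4, 284.2 and 191.5 CPM, Neurod1 at 231.6, 263.7 and 162.5 CPM, and Nuak1 at 573, 778 and 940 CPM. None of the 8 genes passed between N1d.late and N1d.early, with log2 changes of -0.04 ± 0.29 for Nuak1 to 0.71 ± 0.53 for Neurod1, so no difference between the 1-day clusters was shown for them.

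**Figure D4:**
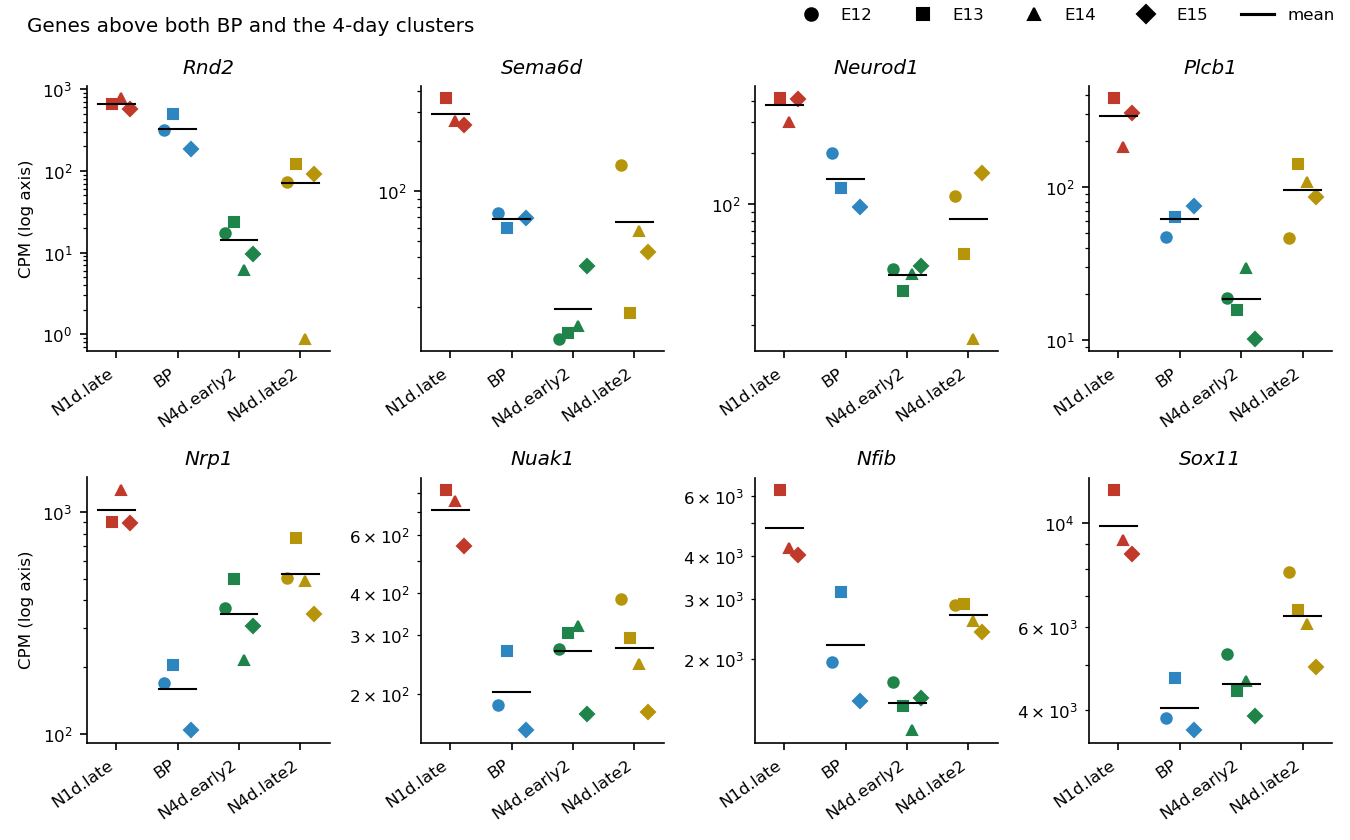
Levels (CPM, log axis, each panel with its own range) of the 8 genes with the largest change above BP, N4d.early2 and N4d.late2. Each sum of at least 10 cells has 1 marker per injection day, with a line at the mean. Every N1d.late sum was above every BP, N4d.early2 and N4d.late2 sum for each gene, which the choice of the genes required. Sema6d stood at 249.1 to 364 CPM in N1d.late and at most 142.6 CPM in BP, N4d.early2 and N4d.late2.

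Within N1d.late at 24 h, gene levels were compared along injection day. A single gene passed the slope test, 0.0091% of those tested, which was Camk2b with a slope of -4.75 ± 0.56 log2 units per day (edgeR adjusted p 0.0031). It is named because it is the only call, after its values were seen. Camk2b stood at 0 CPM in the 7 cells of E12, so its levels of 0, 13.3, 0.374 and 0.0186 CPM from E12 to E15 rest on the 33 cells of E13. No call was left in cells passing quality, in the fit with sums of at least 5 cells 5 other genes passed, and DESeq2 called 80 genes. E13 carries another run code than E14 and E15, so day and run cannot be told apart in the slope.

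Label markers and layer genes are given by day as levels. Pou3f3 stood at 376, 489, 837 and 1086 CPM from E12 to E15 in N1d.late, a slope of 0.57 ± 0.19 per day (edgeR unadjusted p 0.0079, adjusted p 1), and Pou3f2 had a slope of 0.69 ± 0.30 (adjusted p 1). Unc5d stood at 469 CPM in E14 and 683 CPM in E15, the days that share a run. Bcl11b, a deep-layer factor, stood at 478, 733, 321.5 and 215.8 CPM, and Fezf2 at 150, 154.7, 60.03 and 36.3 CPM. Cux1, an upper-layer factor, stood at 103.2, 124.1, 282.5 and 312.3 CPM. The slopes of Bcl11b (-0.88 ± 0.51), Fezf2 (-1.05 ± 0.61) and Cux1 (0.66 ± 0.38) did not pass (adjusted p 1 each).

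The 19 N1d.late cells of 96 h kept some features of the 24 h cells and differed in others. They are few, 4, 3, 1 and 11 cells from E12 to E15, and no test was made. Eomes stood at 559, 798 and 628 CPM in N1d.late of E12, E13 and E15 at 96 h, against 55.8, 27.6, 92.6 and 167.6 CPM in N1d.late of E12 to E15 at 24 h. An Eomes read was found in 15 of 19 cells at 96 h (78.9%, interval 54.4 to 93.9), with a median of 623 CPM per cell, and in 71.2% of cells at 24 h, with a median of 5.21 CPM. Eomes was thus higher in each of the 3 sums of 96 h than in any sum of 24 h, while the intervals of the share of cells with a read overlapped (65.9 to 76.1 at 24 h). In 4-day cells of E15 at 96 h, in the same run, Eomes stood at 0.757 CPM in N4d.early2 and 104.1 CPM in N4d.late2.

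Unc5d stood at 824, 918 and 1330 CPM in N1d.late of E12, E13 and E15 at 96 h, above the 337.2 to 683 CPM of N1d.late at 24 h. Nrp1 stood at 489, 132.4 and 58.2 CPM at 96 h, against 379, 900, 1264 and 897 CPM in N1d.late of E12 to E15 at 24 h. Mapt stood at 204.5, 396 and 122.9 CPM at 96 h, below the 694 to 1493 CPM of the N4d.early2 and N4d.late2 sums collected with them. These 96 h cells therefore carried high Eomes and Unc5d levels with Mapt levels nearer to those of 1-day neurons.

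The interneuron genes were at a summed 519, 319.6, 4.30 and 362 CPM in the N1d.late cells of 96 h from E12 to E15, against 0.759 to 27.7 CPM at 24 h. Erbb4 stood at 318.9, 30.1 and 97.99 CPM in E12, E13 and E15 of 96 h, and an Erbb4 read was found in 6 of 19 cells. In N4d.early2 an Erbb4 read was found in 37.3% of cells and in N4d.late2 in 36.4%, at median depths of 436320 and 210700 counts per cell, against 320450 in the N1d.late cells of 96 h. The interval of the N1d.late share at 96 h, 12.6 to 56.5%, covers both, and the part of free RNA or of mixed wells was not tested. The 7 astrocyte genes in the table summed to 645, 0, 17.2 and 588 CPM from E12 to E15 in N1d.late at 96 h, where 5, 7, 6 and 2 of them were at 0, against 197.6, 17.5, 16.8 and 74.4 CPM at 24 h.

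**Figure D5:**
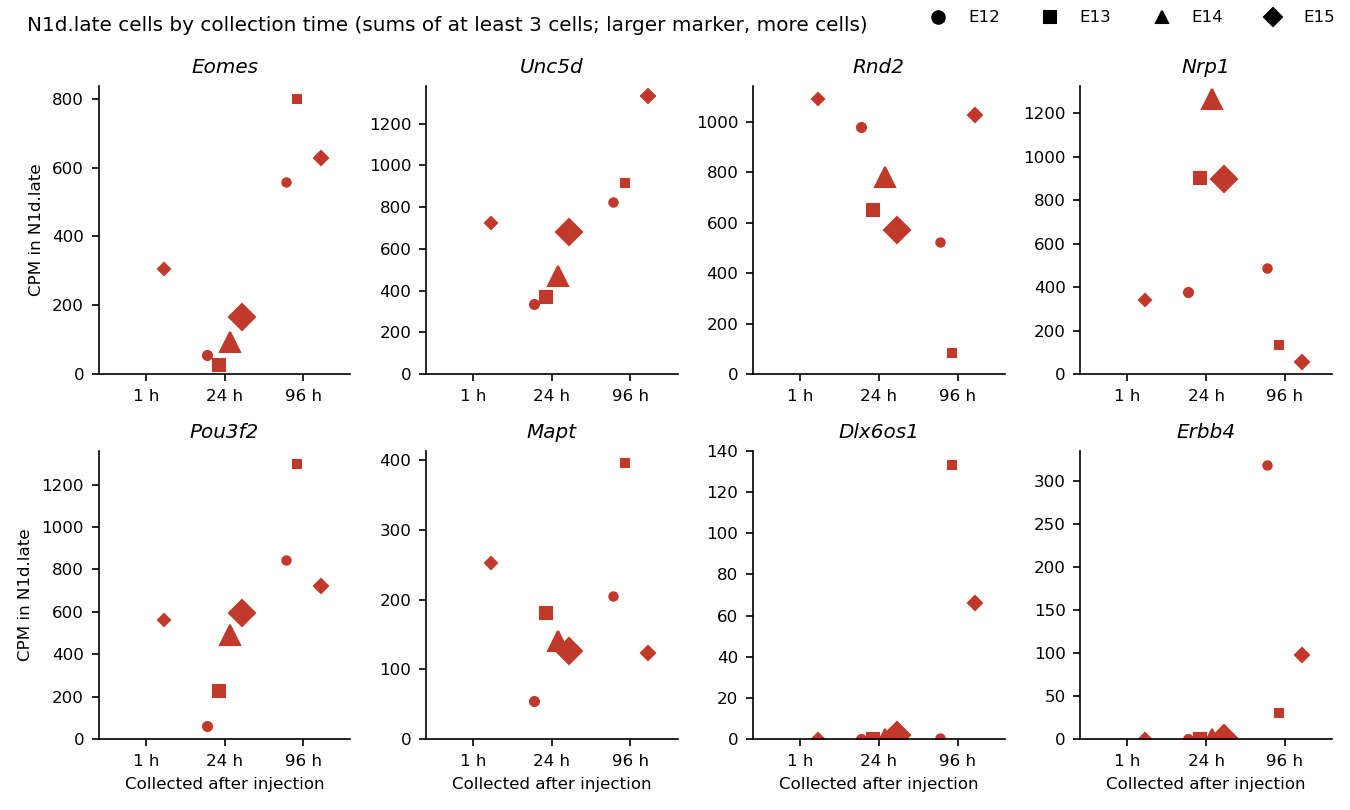
Levels (CPM, vertical axes) of 8 genes in N1d.late cells collected 1, 24 and 96 h after injection, with 1 marker per injection day for sums of at least 3 cells and larger markers for more cells. Eomes lay at 559 to 798 CPM at 96 h and at 27.6 to 167.6 CPM at 24 h, and Dlx6os1 and Erbb4 were near 0 at 24 h in every sum.

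Markers of non-neuronal cells were low in the N1d.late cells of 24 h. Of 15 genes of blood, vessel, microglial and connective cells 6 were in the table, and their summed level in the other non-neuronal cell genes list was 2.64 to 20.8 CPM. Of 7 Cajal-Retzius genes 5 were in the table (list of Cajal-Retzius genes), with a summed level of 43.5 to 87.4 CPM in N1d.late against 6.71 to 122.2 CPM in N1d.early of E12 to E14. The apical progenitor genes summed to 377, 595, 788 and 1499 CPM from E12 to E15 in N1d.late, against 2630, 2209, 4124 and 3727 CPM in BP.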

How the data were processed

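The authors deposited 1 table of raw read counts, with 16441 genes in rows and 2756 cells in columns, and no normalization. Column totals were at least 0.987 of the reads the labels give per cell, and no cell's counts were identical to another's. Per the submitters' processing notes, the build was GRCm38, and TopHat2 2.0.13 and UMI-tools were used, with no role given. The counter, its annotation and its use of strand are not given in the sources used here. Clusters and scores are those of the labels. Cells were taken as deposited, and no doublet caller was run.

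Counts were summed over the cells of a cluster within a sample (BP and AP with their sub-clusters together), and sums of at least 10 cells were kept. The 21 sums of N1d.late, N1d.early, BP, AP, N4d.early2 and N4d.late2 entered 1 edgeR 4.0.16 quasi-likelihood fit (R 4.3.3, TMM scaling, cluster and injection day as terms, 12 residual degrees of freedom). The 10990 genes with at least 10 CPM in at least 3 sums were tested, with Benjamini-Hochberg adjustment, and called below 0.05. Sums of a cluster varied much, with a common coefficient of variation of 84.7%. The SE is approximate, the log2 change divided by the root of F. Log2 changes between clusters are adjusted for injection day, so they can differ from the ratio of the levels given beside them. The slope had its own fit, with 9 residual degrees of freedom. Shares carry 95% Clopper-Pearson intervals, and the floor is 3 counts over a group, or 3 cells for a share of 0.

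Named genes were up to 8 in each direction per contrast with the largest log2 change among calls. They had at least 50 CPM on average in the higher group and no overlap between groups. The lack of overlap given for genes named by size is thus part of their choice and no result. Called members of the gene lists were named too, and some genes that these rules chose are not reported here. The cells and lists were chosen with earlier results of these data known. Coordinates are from GENCODE vM21. Alternatives were DESeq2 1.42.0, limma 3.58.1 with equal weight per cell, other size factors, filters and cell minimums, cells of at least 100000 counts with at most 8% mitochondrial counts, fits without injection day or with fewer groups, and each sum left out. The code was tested on simulated data.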

Additional observations from a re-analysis of the deposited data

Results flagged for a closer look

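In 10 of 83 groups of 4 sums examined, the highest sum stood far from the other 3 by Dixon's test, and chance flags about 1 in 20 groups. In N1d.late at 24 h, the 7 cells of E12 stood apart for Cers6, a ceramide synthase, with 279.2 CPM against 101.8 to 131.03 CPM in the other sums. The same 7 cells stood apart for Nuf2 of the kinetochore (23.52 CPM against 0.26 to 1.698) and Tnr, the matrix protein tenascin-R (30.72 CPM against 0 to 0.0186). The E13 sum stood apart for Camk2b, with 13.29 CPM against 0 to 0.3739 CPM. The E15 sum stood apart for the interneuron RNA Dlx6os1 (1.875 CPM against 0 to 0.0623) and for Sybu (5.624 CPM against 0 to 0.0623).

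Among the 4-day clusters, N4d.early2 of E12 stood apart for Sh3bgrl2, with 22.66 CPM against 0.0946 to 2.934 CPM. In N4d.late2, E13 stood apart for Kit (12.32 CPM against 0.349 to 0.519), E14 for Dnm3 (412.1 CPM against 110.8 to 148.8) and E15 for RP23-14P23.9 (182.2 CPM against 24.08 to 45.94).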

How the results depend on the processing

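None of the called genes followed changed direction under the alternatives run, but the balance of higher and lower calls did. Calls are given here as a percent of the 10990 genes tested. Against BP (1.14%), DESeq2 gave 5.23, sums of at least 5 cells 2.27, sums of at least 20 cells 2.28, limma 2.08, only the groups compared 0.373, and fits without 1 sum 0.391 to 0.646%. Against N4d.early2 (1.92%), DESeq2 gave 6.36, sums of at least 20 cells 3, and fits without 1 sum 0.783 to 1.46%. Against N4d.late2 (1.63%), DESeq2 gave 6.89, sums of at least 20 cells 2.99, cells passing quality 0.719, limma 4.8, only the groups compared 0.146, and fits without 1 sum 0.373 to 2.77%. Against N1d.early (0), DESeq2 gave 0.146% and every other edgeR or limma fit 0. Against the mean of BP and the 4-day clusters (0.155%), DESeq2 gave 1.56, its size factors in edgeR 0.091, no filter 0.091, at least 50 CPM 0.255, sums of at least 5 cells 0.61, sums of at least 20 cells 0.318, day as a number 0.309, and fits without 1 sum 0 to 0.218%. For the slope (0.0091%, 1 gene), DESeq2 gave 0.728, sums of at least 5 cells 0.0455, cells passing quality 0, limma 0, only the N1d.late sums 0, and fits without 1 sum 0 to 0.0182%. The slope had 0% of its calls higher, DESeq2 82.5%, and the mean contrast 88.2%, DESeq2 44.4%. As a share of 1-day neurons, N1d.late took 21.43% in E13, 89.53% in E14 and 98.47% in E15. The cause of these changes was not tested.

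The replicate block is injection day, taken from the labels, since sums of a day at 24 h come from 1 sample. Deviations of N1d.late sums correlated with those of the same day at 0.168 and 0.216 for BP, and at -0.0227 to 0.109 for the other clusters. Without the block 1.16, 1.75, 1.34, 0 and 0.0819% of genes passed against BP, N4d.early2, N4d.late2, N1d.early and the mean. Of the called genes followed, 39 of 48, 44 of 54, 28 of 39 and 6 of 11 were still called against BP, N4d.early2, N4d.late2 and the mean. Other fits kept fewer. Against N4d.late2, 19 of 39 were still called in cells passing quality and 8 of 39 with only the groups compared. Against BP, 22 of 46 were still called with only the groups compared. With 3 N1d.late sums, small differences are not detectable.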
